A study of Homo sapiens with 3 samples.

Results

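The MYC, MAX and MXD network is a set of basic helix-loop-helix leucine zipper transcription factors, here the 10 genes MYC, MYCL, MYCN, MAX, MLX, MXD1, MXD3, MXD4, MNT and MGA. They were taken by name, as every probe that was not a control and whose symbol was on this list. All 10 genes had probes, 19 in number, among 21614 named genes on the array. HT29, an established human cell line from a colon adenocarcinoma, was cultured in RPMI medium and was harvested from tissue culture polystyrene (TCP), from membranes of chitosan (CS) and from chitosan membranes grafted with hyaluronan (CSHA). Chitosan is a cationic polysaccharide made from chitin, and hyaluronan is a glycosaminoglycan of the extracellular matrix. Cy3-labelled cRNA of each substrate was hybridized to 1 array. No difference below was therefore checked by replicates, and p-values are not given.

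MYC proteins bind DNA only as dimers with MAX, and MYC-MAX dimers on the E-box sequence CACGTG activate genes of growth and proliferation. MXD proteins and MNT, some of which also pair with MLX, compete for MAX and for the same sites, and they recruit SIN3 and histone deacetylases to repress transcription. MXD1 and MXD4 are typically expressed as cells leave the cycle and differentiate. MGA also pairs with MAX and belongs to a non-canonical polycomb complex, while MLX is the partner of the glucose-sensing factors MondoA (MLXIP) and ChREBP (MLXIPL). In colon cancer, MYC is a target of Wnt/β-catenin signaling.

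A level is given here as the processed signal, the background-corrected brightness of a probe. A difference is taken after log2 transformation and subtraction of each array's 75th percentile. Where a gene had several probes, the brightest stood for it, and the others are given beside it. Levels of different probes are not comparable with each other, so only the arrays were compared, probe by probe. Probes well above background made up 48.6%, 51.1% and 49.9% of all probes on TCP, CS and CSHA, and saturated spots numbered 0. Probes printed 10 times varied among their spots with a median SD (log2) of 0.05 for TCP and CS and 0.06 for CSHA, and of 0.12 on each array in the dimmest bin. It describes spots printed on 1 array and says nothing of variation between cultures. The SD of a difference given below was derived from it at the brightness of the probe. The 10 epithelial markers, such as CDH1 and CDX2, were well above background on all 3 arrays. Of these, 2 on CS and 5 on CSHA rose by at least 1.5-fold, with medians of 0.19 and 0.52. Of all genes, 4.12% rose this far on CS and 11.5% on CSHA. On CSHA 8 of the 10 were above TCP, while LGALS4 at -0.20 and KRT18 at -0.06 were below it. The other KRT18 probe was at -0.66. CEACAM5 was 4.47-fold, KRT20 1.86-fold and CDX2 1.84-fold higher on CSHA than on TCP. The part of this shift in the differences of the network was not tested. COL1A1, COL1A2, COL3A1, DCN and LUM, markers of fibroblasts, were above background on none, while PDGFRB, a marker of pericytes and fibroblasts, was above it on CSHA alone, at 90.3.

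On CSHA, 4 of the 9 measured members rose by at least 1.5-fold relative to TCP, namely MYC, MYCL, MXD4 and MNT, and MLX fell. The share of all genes that rose this far on CSHA was 11.5%, and 11.2% fell this far. On CS, MYCL was the only member past 1.5-fold, and it rose, where 4.12% of all genes rose that far and 5.03% fell that far. Between the membranes, MXD4 and MNT were at least 1.5-fold higher on CSHA than on CS and MLX was lower, beside 7.68% of all genes that were higher and 7.33% that were lower. The median difference of the members was 0.16 on CS, 0.58 on CSHA and 0.38 for CSHA against CS. The median of all genes in the same comparisons was 0.04, 0.13 and 0.07. The differences on CS and on CSHA share the TCP array and are not independent of each other. In RNA from a whole culture, fewer cells that express a gene and less RNA per cell cannot be told apart.

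**Figure D1:**
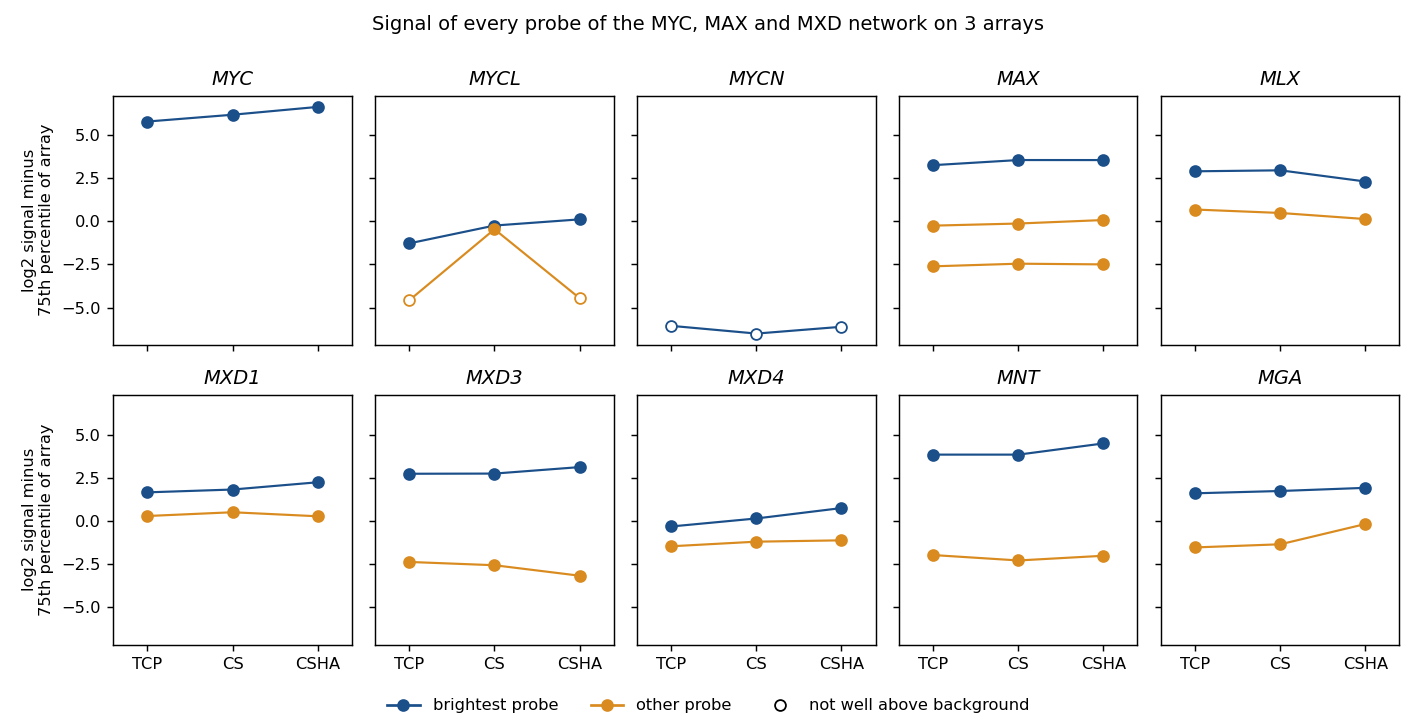
Normalized log2 signal (y axis, log2 signal minus the 75th percentile of the array) of every member probe on TCP, CS and CSHA (x axis), with 1 panel per gene, filled points where the probe was well above background and open points where it was not. MYC, MYCL by its brightest probe and MXD4 step up from TCP to CS to CSHA, MNT is level between TCP and CS, and both MLX probes are lowest on CSHA. Levels of different probes are not comparable.

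MYC, the transcription factor that gives the network its name, was read by 1 probe (NM_002467) printed 10 times on each array. As the mean over spots, it read 19582, 30702 and 33557 on TCP, CS and CSHA. The spots spanned 18668 to 20023 on TCP, 30252 to 31477 on CS and 32136 to 34490 on CSHA. The spots of the 3 arrays therefore did not overlap, in signal or after normalization. The normalized mean was 5.79, 6.18 and 6.64 on TCP, CS and CSHA, with an SD among spots of 0.03, 0.02 and 0.03. Overlap was not counted for the other probes printed 10 times, whose brightest bin had a median SD of 0.04 on each array. Separate ranges of spots say nothing of variation between cultures. The 75th percentile was 354, 423 and 337 on TCP, CS and CSHA, so CS and CSHA lay closer in signal than after normalization. The normalized difference was 0.39 on CS, or 1.31-fold, and 0.85 on CSHA, or 1.80-fold, and CSHA was 1.37-fold above CS. Of all genes, 9.42% were at least as high as MYC on CS and 4.55% on CSHA.

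MYCL, the family member first found in lung cancer, had the largest rise among the brightest probes of the members. Its brightest probe (NM_001033081) read 146, 357 and 365 on TCP, CS and CSHA, and was 2.04-fold higher on CS and 2.62-fold higher on CSHA. The log2 differences were 1.03 and 1.39, with an SD among spots of 0.13. Only 1.30% of all genes were at least as high on CS and 1.36% on CSHA. CSHA exceeded CS by 0.36, but the mean over both MYCL probes gave -1.82 for that comparison.

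The second MYCL probe (NM_005376) behaved differently. It read 14.9, 308 and 15.4 on TCP, CS and CSHA, and was well above background on CS alone, which puts CS above TCP by at least 3.42 on the log2 scale and CSHA at least 10.8-fold below CS. On the CS array the spots around it were bright as well. Of its 8 neighbours, 5 were well above background on CS but not on TCP, among them a control spot that read 5.96, 170 and 5.58 on TCP, CS and CSHA. The median log2 difference of the neighbours was 2.01. Around the other 24 probes of the network examined in this way, 0 to 3 of the neighbouring spots did so, and over the whole array 0.124% of spots had 5 or more such neighbours. The part of these neighbours in the MYCL value was not tested. The brightest MYCL probe lies at another place, where 3 neighbours, the highest of that range, were well above background on CS but not on TCP, and the median difference of its 8 neighbours was -0.16.

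MYCN, the family member expressed mainly in neural and embryonic tissue, was not well above background on any array. It read 5.29, 4.63 and 4.86 on TCP, CS and CSHA, below the lowest signal well above background, which was 24.1, 21.1 and 22.6. No fold change is given for it.

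**Figure D2:**
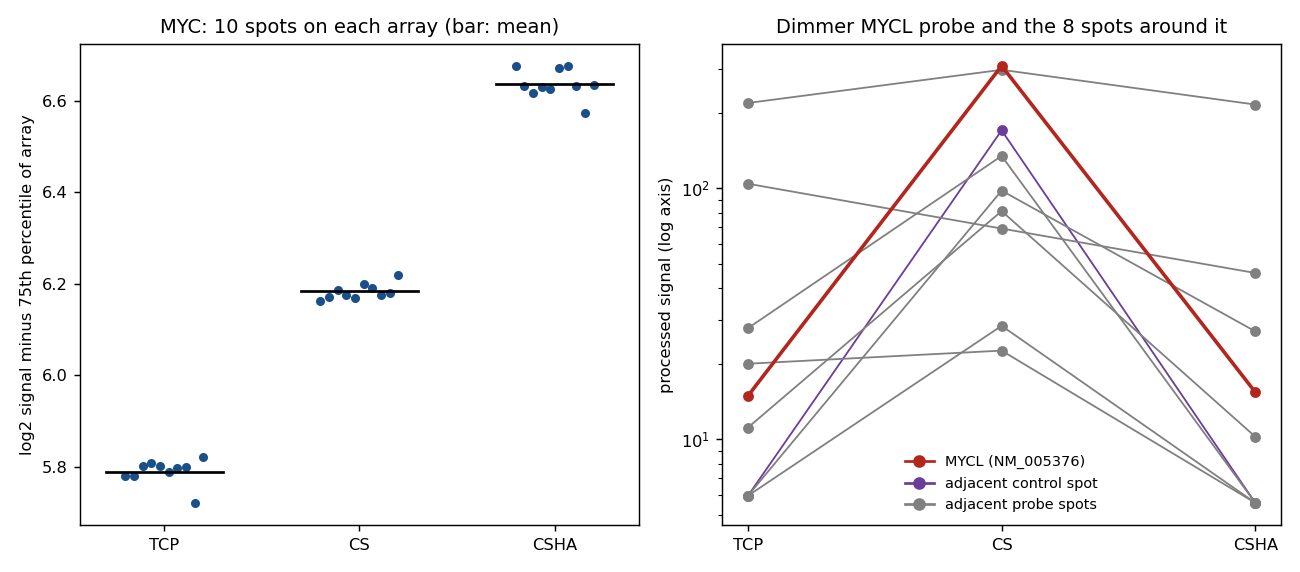
Left, normalized log2 signal of the 10 MYC spots on each array, with the mean as a bar. Right, processed signal (log axis) of the dimmer MYCL probe in red, an adjacent control spot in purple and the other adjacent spots in gray on TCP, CS and CSHA. The MYC spots of the 3 arrays occupy separate ranges, while the MYCL probe at 308 on CS stands among spots that are also brighter there.

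MAX, the obligate partner of MYC and a partner of the MXD proteins, MNT and MGA, moved less than MYC by its brightest probe. Its brightest probe (NM_145113) read 3389, 4968 and 3960 on TCP, CS and CSHA. After normalization it was at 0.30 on CS and 0.29 on CSHA, so the membranes were within the spread among spots of each other, at -0.0020 with an SD of 0.06. The 2 other MAX probes, designed on NM_197957 and NM_145114, were at 0.12 and 0.15 on CS and at 0.32 and 0.11 on CSHA. All 3 MAX probes were thus above TCP on each membrane and none reached 1.5-fold. The SD among spots was 0.17 on each membrane for the NM_145114 probe, which is above its differences. For the NM_197957 probe it was 0.08 on CS and 0.09 on CSHA. The median of all genes on CSHA, 0.13, was also above the 0.11. The difference of MYC exceeded that of MAX by 0.10 on CS and by 0.55 on CSHA.

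MLX, the partner of MondoA and ChREBP, was the single member that fell. Its brightest probe read 2646, 3285 and 1673 on TCP, CS and CSHA, and its second probe 569, 591 and 370, both designed on NM_170607. CSHA was lowest for each. The brightest probe was 1.51-fold lower on CSHA than on TCP and 1.57-fold lower than on CS, at -0.59 and -0.65. The second probe was at -0.55 and -0.35. On CS the probes lay on either side of TCP, at 0.06 and -0.20. On CSHA relative to CS, 6.15% of all genes were at least as low as MLX. MLX lies just past 1.5-fold, and with 5 of the 10 processing alternatives it was short of it.

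The MXD repressors differed from each other and, in part, between their probes. MXD4 (NM_006454) had 284, 467 and 566 for TCP, CS and CSHA with its brightest probe and rose 2.10-fold on CSHA, with 1.38-fold on CS. Its log2 difference on CSHA was 1.07 with an SD among spots of 0.09, and 2.55% of all genes were at least as high. The second MXD4 probe read 128, 184 and 155 and was at 0.27 on CS and 0.34 on CSHA, above TCP in each case and short of 1.5-fold. MXD4 and MYCL were the members that passed 2-fold on CSHA.

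MXD1 (NM_002357) had 1118, 1494 and 1596 for TCP, CS and CSHA with its brightest probe. The normalized difference was 0.16 on CS and 0.58 on CSHA, which at 1.499-fold falls just short of 1.5-fold. The second MXD1 probe read 432, 599 and 407, and was at 0.22 on CS and -0.02 on CSHA. The probes of MXD1 thus gave like values on CS but not on CSHA.

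MXD3, a member expressed in proliferating cells, had probes that opposed each other. The bright one (NM_031300) read 2360, 2838 and 2937 on TCP, CS and CSHA and was at 0.01 on CS and 0.39 on CSHA. The dim one, designed on another transcript (NM_001142935), read 68.0, 71.2 and 37.3, and was at -0.19 on CS and -0.80 on CSHA, which is 1.74-fold lower. The mean over the 2 probes was at -0.21 on CSHA, so no direction is given for MXD3 there.

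**Figure D3:**
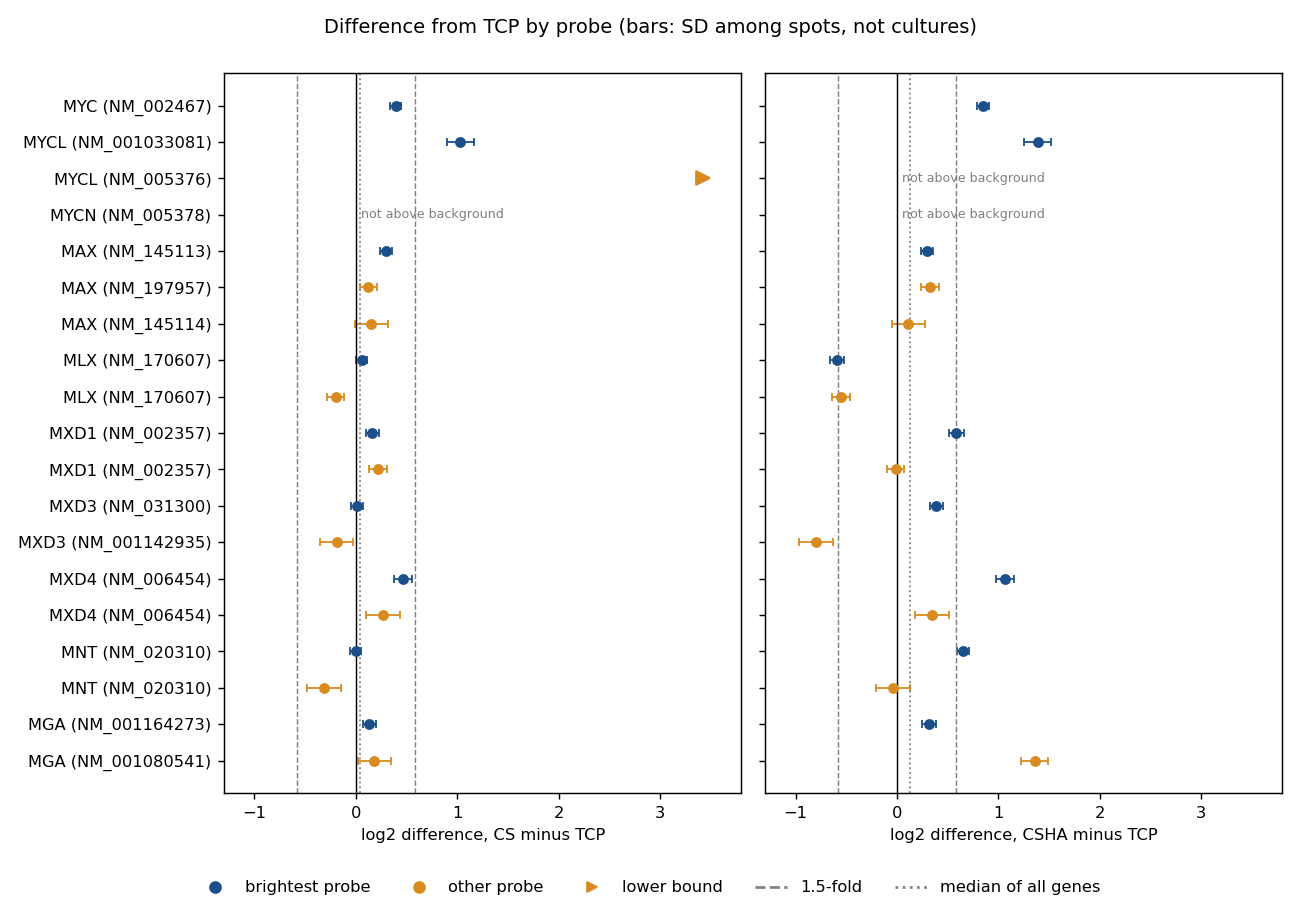
Log2 difference from TCP (x axis) of each member probe (y axis, with its RefSeq transcript) on CS and CSHA. Bars are the SD expected among spots, not among cultures, the triangle is a lower bound, dashed lines mark 1.5-fold and the dotted line is the median of all genes. The brightest probes of MYC, MYCL, MXD4 and MNT lie to the right of 1.5-fold on CSHA, both MLX probes lie to the left of 0, and the probes of MXD3 lie on opposite sides.

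MNT, the most widely expressed repressive partner of MAX, had 5094, 6079 and 7613 for TCP, CS and CSHA with its brightest probe (NM_020310). After normalization CS equalled TCP within the spread among spots, at -0.00032 with an SD of 0.05, and CSHA was 1.57-fold above each, at 0.65, although 3 of the 10 processing alternatives put MNT short of 1.5-fold over TCP. The second MNT probe was dim, at 89.8, 86.2 and 83.1, and its differences were -0.31 on CS and -0.04 on CSHA. The rise of MNT on CSHA thus rests on the brightest probe.

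MGA, the largest of the MAX partners, had 1076, 1409 and 1276 for TCP, CS and CSHA with its brightest probe (NM_001164273), at differences of 0.13 and 0.32. Its second probe (NM_001080541) read 122, 165 and 298, with 0.18 on CS and 1.36 on CSHA, the latter 2.56-fold higher. Both probes were above TCP on each membrane, and they differed in size on CSHA by more than the spread among spots, for which the SD was 0.07 and 0.13.

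Counted by probe rather than by gene, 14 of 18 member probes with a value were above TCP on CS, and 2 passed 1.5-fold, both of MYCL. The second MYCL probe passed as a bound, among neighbours that were also bright on CS. On CSHA, 12 of 17 were above TCP, 5 rose by at least 1.5-fold and 2 fell. Of all genes, each by its brightest probe, 56.8% were above TCP on CS and 61.7% on CSHA. On CSHA 11.5% of all genes rose and 11.2% fell by at least 1.5-fold. Shares over all probes were not counted. The probes that rose were those of MYC, MYCL, MXD4, MNT and the second one of MGA, and those that fell were a probe of MLX and the dim probe of MXD3.

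MXI1, the remaining MXD repressor and not among the 10 genes, had 725, 1604 and 1087 for TCP, CS and CSHA with its brightest probe and was 1.85-fold higher on CS and 1.57-fold higher on CSHA. Its second probe on the same transcript (NM_130439) read 685, 1338 and 1376, and rose by 0.71 on CS and 1.08 on CSHA. The dim MXI1 probe (NM_005962) was at 0.43 on CS and -0.11 on CSHA. All 3 probes of MXI1 were above TCP on CS, and 1.76% of all genes were at least as high there. Around the second probe, 6 of 8 neighbouring spots were also higher on CS, with a median difference of 0.57. Of these neighbours, 3 were well above background on CS but not on TCP. Around the brightest and the dim probe the median was -0.16 and -0.35. The part of the neighbours in the value of the second probe was not tested.

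MLXIP, which encodes MondoA, had 4971, 6655 and 8686 for TCP, CS and CSHA with its brightest probe, and 256, 291 and 357 with the other. On CSHA it rose 1.83-fold, at 0.87, with the other probe at 0.55. On CS the probes were at 0.17 and -0.07. MLXIPL, which encodes ChREBP, was dim, at 75.1, 102 and 65.5, with differences of 0.19 on CS and -0.13 on CSHA that were close to its SD among spots of 0.17. Its difference on CSHA changed sign with scaling to the spike-in probes, to 0.31. MLX and MLXIP, which encode partners in 1 dimer, lay on opposite sides of TCP on CSHA.

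Promoter sequence was taken from RefSeq (GRCh38.p14) as windows from 250 bases before to 50 bases after a gene's start. Windows were present for 9 members and absent for MYC. The E-box CACGTG, which reads alike on both strands, was present in 7.26% of 35116 windows, in 3 of the 12 windows of members, and in 13 of the 29 windows (44.8%) of genes listed below as MYC activated. The members with it were MLX, MXD4 and MNT. A 60-base stretch of each is shown because these genes passed 1.5-fold on CSHA, MXD4 and MNT upward and MLX downward, with the E-box in capitals.
MLX, chr17:42567023-42567082, plus strand: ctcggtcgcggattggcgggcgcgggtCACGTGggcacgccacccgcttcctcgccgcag
MXD4, chr4:2262300-2262359, minus strand: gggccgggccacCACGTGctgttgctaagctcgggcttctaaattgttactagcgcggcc
MNT, chr17:2401221-2401280, minus strand: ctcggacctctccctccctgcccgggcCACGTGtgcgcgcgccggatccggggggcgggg
The E-box started 50 bases before the gene's start in MLX, 238 bases before it in MXD4 and 193 bases before it in MNT. A match of letters is not evidence that a factor binds there, and the other members' windows show only that these letters do not occur within them.

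TXNIP and ARRDC4, which encode α-arrestins that limit glucose uptake, are well known targets of MondoA and MLX. Of 8 listed targets of these factors, 6 had a value. On CS, TXNIP alone passed 1.5-fold, upward as 4.12% of all genes did, and the median was 0.13. On CSHA, TXNIP, ARRDC4 and the fatty acid synthase gene FASN rose, none fell, and the median was 0.44. Of all genes, 11.5% rose and 11.2% fell this far on CSHA. TXNIP read 1276, 2546 and 2781 on TCP, CS and CSHA, and rose 1.67-fold on CS and 2.29-fold on CSHA. ARRDC4 read 101, 167 and 145 and was 1.38-fold higher on CS and 1.51-fold higher on CSHA. FASN read 14940, 16385 and 23775, and was at -0.12 on CS and 0.74 on CSHA. MLX was lowest on CSHA, where these 3 targets were highest after normalization. A MondoA or ChREBP dimer with MLX binds a carbohydrate response element, CACGNG and CNCGNG 5 bases apart, searched on both strands and present in 0.501% of all windows. TXNIP held it and ARRDC4 held an E-box, shown in capitals. The ARRDC4 E-box may overlap other forms of the element.
TXNIP, chr1:145996630-145996689, minus strand: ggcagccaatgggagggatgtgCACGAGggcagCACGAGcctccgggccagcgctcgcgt
ARRDC4, chr15:97960466-97960525, plus strand: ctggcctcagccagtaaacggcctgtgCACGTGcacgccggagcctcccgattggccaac

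Of 28 listed genes known to be activated by MYC, 27 had a value, and their median was -0.01 on CS and -0.11 on CSHA. On CS, 0 rose and 2 fell by at least 1.5-fold, beside 4.12% and 5.03% of all genes. On CSHA 0 rose and 6 fell, beside 11.5% and 11.2% of all genes. Among the 6 were CDK4 at -0.62 and the amino acid transporter gene SLC7A5 at -0.64. These counts take each gene by its brightest probe. On CSHA another probe of PPAT was at 0.60, another of LDHA at -0.77 and another of NOP56 at -1.07. SRM, the spermidine synthase gene, read 4617, 4122 and 1625 on TCP, CS and CSHA and was 2.71-fold lower on CSHA. CDC25A, the phosphatase gene for entry into S phase, read 1298, 1018 and 518 and was 1.52-fold lower on CS and 2.39-fold lower on CSHA. CAD, the gene for the first enzymes of pyrimidine synthesis, read 3583, 3286 and 1627 and was 2.10-fold lower on CSHA. TERT, the telomerase gene, read 184, 113 and 108 and was 1.95-fold lower on CS and 1.63-fold lower on CSHA. MYC was thus higher on each membrane while these 4 genes, named for the size of their differences, were lower. Of the 27 genes, 13 were above and 14 below TCP on CS, and 10 were above and 17 below it on CSHA. After spike-in scaling, 6 genes of the list rose and 3 fell on CSHA, and the median was 0.33, beside 0.57 for all genes. The E-box of SRM, shown in capitals, lay 199 bases before the start.
SRM, chr1:11060185-11060244, minus strand: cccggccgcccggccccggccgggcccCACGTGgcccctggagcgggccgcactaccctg

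Of 14 listed genes known to be repressed by MYC, often through ZBTB17 (MIZ1), 13 had a value. On CS, 1 rose and 1 fell, beside 4.12% and 5.03% of all genes, with a list median of 0.17. On CSHA 6 rose and 2 fell, beside 11.5% and 11.2% of all genes, with a list median of 0.43. Over the 10 alternatives the 6 ranged from 3 to 9. The 6 became 3 with normexp, quantile normalization, the 75th percentile over detected probes and the deposited values, and the median was 0.25 with normexp. The risers on CSHA were NDRG1, NDRG2, the stress gene GADD45B at 0.84, the cell cycle inhibitor genes CDKN1A and CDKN1C and the cyclin gene CCNG2, where CDKN1A rests on a bound and the other probes of CCNG2 were between -0.03 and 0.46. NDRG1, a differentiation gene repressed by MYC, read 1136, 2016 and 2532 on TCP, CS and CSHA and was at 0.57 on CS and 1.23 on CSHA. NDRG2 read 1145, 2350 and 2254 and rose by 0.78 and 1.05, with its other probe at 0.65 and 0.42. CDKN2B, which encodes the cyclin-dependent kinase inhibitor p15, went against the others and read 71.1, 39.6 and 31.3, at -1.10 on CS and -1.12 on CSHA. CLU, which encodes clusterin, read 439, 414 and 212 and was at -0.34 and -0.98. Of the stromal, endothelial and immune markers, 6 of 12 were well above background on TCP, 5 on CS and 7 on CSHA. Their summed signal was 1233, 1846 and 2130, of which CD14 alone made up 834, 1408 and 1633. Their part in these differences was not tested.

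**Figure D4:**
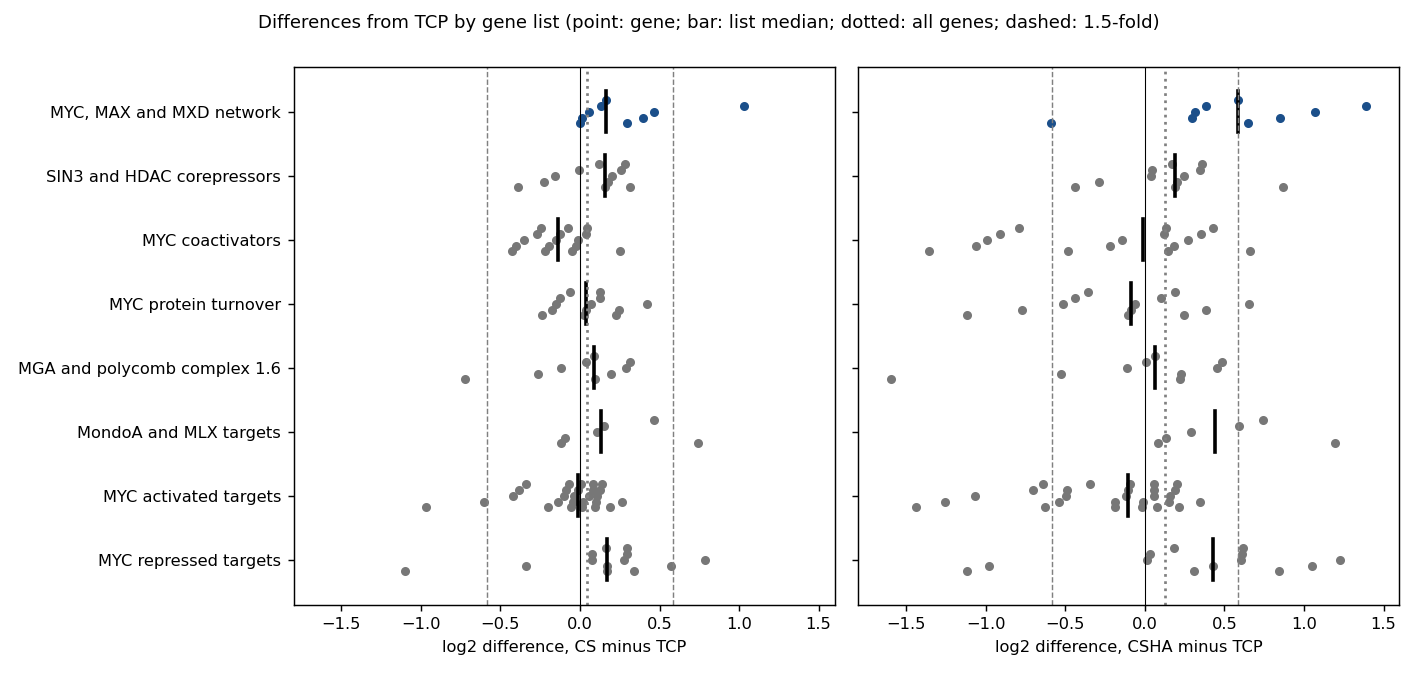
Log2 difference from TCP (x axis) of the genes of each list (points) on CS and CSHA, with the list median as a black bar, the median of all genes dotted and 1.5-fold dashed. On CSHA the network has a median of 0.58 and the MYC repressed targets one of 0.43, while the MYC activated targets have one of -0.11 and trail to the left.

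MYC opens chromatin through a group of coactivators. Of the 16 genes listed as coactivators, which include the repressive partner ZBTB17, none passed 1.5-fold on CS. The median there was -0.14 and 13 were below TCP. On CSHA, 8 were above TCP and 8 below, and of these 5 fell and 1 rose by at least 1.5-fold, with a median of -0.01. Of all genes, 11.2% fell and 11.5% rose this far on CSHA. With spike-in scaling the count turned to 2 that fell and 5 that rose. RUVBL2, an ATPase of the TIP60 and INO80 complexes, read 8167, 8235 and 3044 on TCP, CS and CSHA and was 2.56-fold lower on CSHA. EP400, the motor of the TIP60 complex, read 413, 373 and 189 and was 2.08-fold lower there. TRRAP, the scaffold that binds MYC directly, read 818, 725 and 392 and was 1.99-fold lower. ZBTB17, counted in this list although it is the partner through which MYC represses genes, read 688, 778 and 349 and was 1.88-fold lower. RUVBL1, the partner of RUVBL2, was at -0.79, and the gene that rose was the acetyltransferase gene EP300, at 0.66. The 5 that fell, ZBTB17 among them, were lower on the array on which MYC was highest.

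MXD proteins repress through SIN3 and HDAC corepressors. Of the 11 listed, none passed 1.5-fold on CS and 1 rose on CSHA, a share near the 11.5% of all genes, with medians of 0.16 and 0.19. With spike-in scaling 7 rose on CSHA, and with normexp or the deposited values 0 rose. The gene that rose in the setting used was SAP18, a subunit of the SIN3 complex. SAP18 read 114, 153 and 198 and was 1.83-fold higher on CSHA. Among 9 partners of MGA in polycomb complex 1.6, L3MBTL2 fell and none rose, on CS and on CSHA alike, with medians of 0.09 and 0.07. Of all genes, 5.03% fell that far on CS and 11.2% on CSHA. The 1 that fell on CS became 0 with normexp and with the deposited values. L3MBTL2, a chromatin reader of that complex, read 229, 166 and 72.4 on TCP, CS and CSHA and was 1.65-fold lower on CS and 3.02-fold lower on CSHA. Of 15 listed genes that act on the stability of MYC protein, 13 had a value, with medians of 0.04 on CS and -0.08 on CSHA. None passed 1.5-fold on CS. On CSHA, the kinase genes PLK1 and AURKA fell, at -1.12 and -0.77, and GSK3B, whose kinase marks MYC for degradation, rose by 0.66. These 2 falls and 1 rise among 13 genes stand beside 11.2% of all genes that fell and 11.5% that rose. The second probe of PLK1 was at -0.40. On TCP, CS and CSHA, PLK1 read 1768, 1790 and 776. AURKA read 5898, 6459 and 3293. GSK3B read 2000, 2830 and 3004, so it was highest on CSHA and the other two kinase genes were lowest there.

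Scaling to the 7 brightest spike-in probes moved every gene on CSHA by the same amount, and moved the median of all genes on CSHA from 0.13 to 0.57. With it, MYC was at 1.28, MYCL at 1.83, MXD4 at 1.503, MNT at 1.09 and MLX at -0.16 on CSHA, so that MLX remained below TCP and below the median of all genes. Over the 10 alternatives, MYC took values between 0.34 and 0.45 on CS and between 0.79 and 1.28 on CSHA. On CSHA, MXD4 ranged from 0.71 to 1.503, MNT from 0.30 to 1.09 and MLX from -0.65 to -0.16. MYCL lay between 0.79 and 2.57 on CS and between 0.75 and 1.83 on CSHA, where the value of 2.57 and that of 0.75 came from the mean over its probes. The mean over probes also took MXD3 on CSHA to -0.21 and MGA to 0.84, further than spike-in scaling did.

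**Figure D5:**
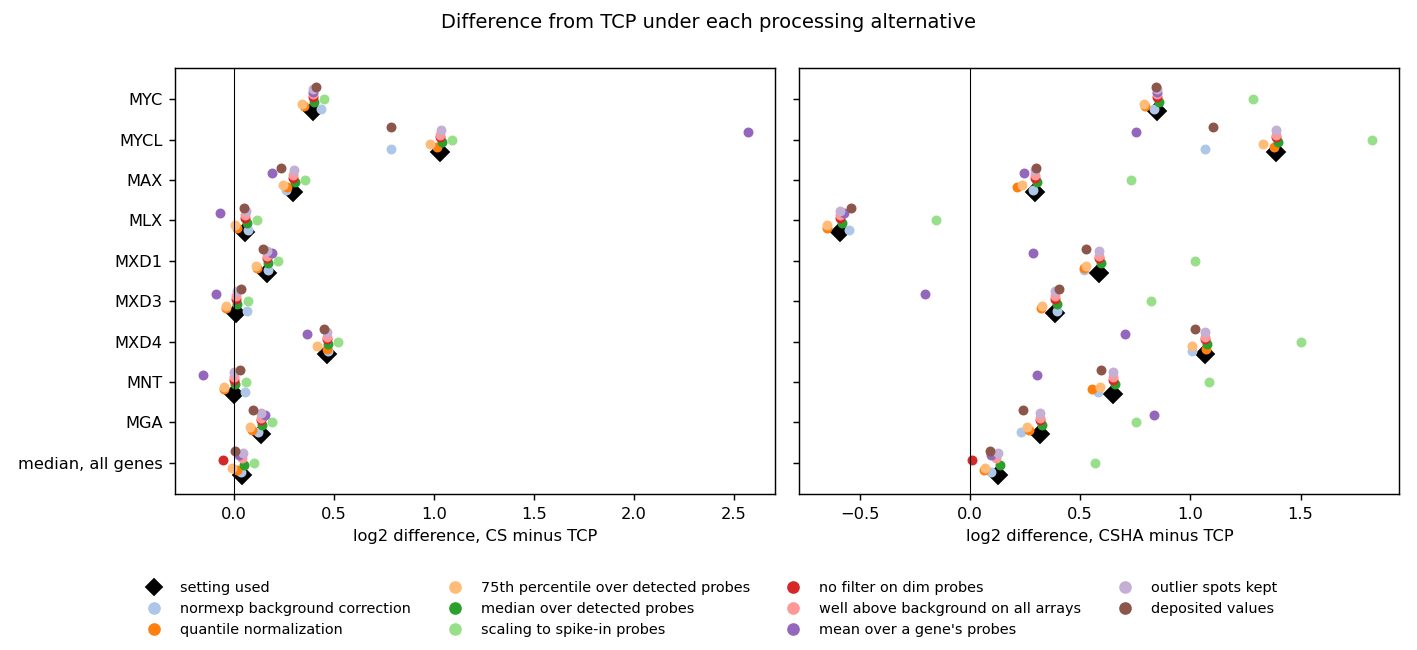
Log2 difference from TCP (x axis) of each measured member and of the median of all genes (y axis) on CS and CSHA, with the setting used as a black diamond and each processing alternative as a colored point. MYC, MYCL, MXD4 and MNT stay to the right of 0 on CSHA and MLX to the left, while MXD3 crosses 0 with the mean over its probes.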

How the data were processed

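RNA of HT29 cells grown on TCP, CS or CSHA was measured on 3 single-colour arrays of 1 slide, 1 per condition. The authors deposited the scanner software's spot intensity, not normalized between arrays, with background flags, and a table of log2 values. Differences between arrays in that log2 table equalled those of the deposited median spot signal up to 1 constant per comparison. Feature Extraction 10.7.3.1 is named in the headers and another version in the methods. The sample records name RNeasy and Low Input Quick Amp kits, the methods TriPure and Quick Amp. Columns without a sample numbered 0.

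Processed signals below 1 would have been set to 1, but the files held none. Signals were then log2 transformed and the 75th percentile of each array's noncontrol probes was subtracted. Control spots and spots marked as outliers were omitted, and repeated spots were averaged. Of 50599 probes, 30004 were matched by accession to RefSeq symbols (GRCh38.p14, used for names and promoter windows) and 20595 were not used. A comparison needed a gene well above background on 1 or both of its arrays. Where only 1 had measured a probe, a bound was set at the lowest signal well above background or, if higher, at the dim probe's own signal. Genes were counted at 1.5-fold with no test. The fold, the members and the lists were chosen with earlier results of these data known. Genes named are the members, MXI1, MLXIP, MLXIPL and, per list, up to 4 genes past 1.5-fold with the largest difference on either membrane. Not every marker this rule selects is described. The calculation was tested on simulated data. In all, 10 alternatives were run besides a lower and a higher fold (2), with normexp (offset 50) on the median signal. The number of arrays limits the precision. Tools were Python 3.11.15 with pandas 2.3.3, matplotlib 3.10.9 and numpy 2.4.6, and limma 3.58.1 in R 4.3.3.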

Additional observations from a re-analysis of the deposited data

How the results depend on the processing

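No paired analysis was possible because each condition had 1 array and the labels carry no shared replicate numbers. For the same reason no replicate could be left out, and a difference between cultures cannot be told apart from one between substrates. Of the 12 network genes with a value, 8 kept their sign in all 10 alternatives on CS, 10 on CSHA and 7 between the membranes. The count of members at least 1.5-fold lower on CSHA than on TCP, 1 in the setting used, was 0 with normexp, the median over detected probes, spike-in scaling, the mean over probes, the deposited values and a fold of 2. For CSHA against CS, the 2 higher members became 0 with normexp, 6 with spike-in scaling, 1 with the mean over probes, 0 with the deposited values, 0 at 2-fold and 6 at the lower fold tried, and the 1 lower member, MLX, became 0 with spike-in scaling and at 2-fold. With the mean over probes MLX was at -0.50 and short of the fold, and MYCL was the lower member in its place. The 4 members higher on CSHA than on TCP became 3 with normexp, 3 with quantile normalization, 8 with spike-in scaling and 2 at 2-fold. The 1 higher on CS became 3 at that lower fold. The members' median on CSHA, 0.58, was 1.02 with spike-in scaling and 0.30 with the mean over probes, and for CSHA against CS, 0.38, it was 0.75 and 0.094. Signs turned with spike-in scaling, which moved the median of all genes to 0.57 on CSHA and 0.45 between the membranes, for the median of MYC activated targets on CSHA (0.33), and, between the membranes, for MXI1 (0.14), MLXIPL (0.064) and the median of the MYC protein turnover list (0.20). They turned with the mean over probes for MXD3, at -0.21 on CSHA and -0.12 between the membranes, and for MYCL between the membranes, at -1.82. MLXIPL on CS was at -0.0033 with the deposited values. Over the alternatives, the genes past 1.5-fold numbered 170 to 1349 upward and 242 to 2056 downward on CS, 815 to 6963 and 549 to 2705 on CSHA, and 413 to 4735 and 347 to 1742 between the membranes. The cause was not tested. Dim probes, such as those of MYCN, MLXIPL and the second probes of MNT and MXD3, limit what can be said of them.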
